A study of Mus musculus with 11 samples.

Results

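Genes of the hypoxia-inducible factor (HIF) pathway were examined in whole testis of mice lacking an iron regulatory protein. The 10 genes were taken by name from the 24411 genes of the count table: Hif1a, Egln1, Egln3, Vegfa, Slc2a1, Pdk1, Bnip3, Adm, Ankrd37 and Ndrg1. They were listed because loss of Irp1 is known to release the translation of HIF2α, and all 10 had a row in the table. Of these, 9 passed the filter on low counts, and Adm did not. Decapsulated testes of 20-week-old mice gave polyadenylated RNA from 4 wild-type (WT) mice, 4 Irp1-/- mice and 3 mice without Irp2, the product of Ireb2 (Irp2-/-). The Irp1-/- mice carried a disrupted Aco1, the gene that encodes Irp1 (allele Aco1tm1Roua, on C57Bl/6J), and their WT controls were littermates from heterozygous parents. The origin of the Irp2-/- mice and whether the WT mice were also their littermates are not given in the sources used here. The labels give both deletions as global, that is, not limited to a cell type of the testis. The 3 comparisons were Irp1-/- against WT, Irp2-/- against WT, and the knockouts against each other. The first and second share the WT samples, and each was read separately.

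HIF is a transcription factor made of an oxygen-regulated α subunit and a stable β subunit. In oxygenated cells, prolyl hydroxylases mark the α subunit, the von Hippel-Lindau protein binds it, and the proteasome removes it. When oxygen or iron is short, the hydroxylases slow down, the α subunit persists, and genes for glucose uptake, glycolysis, mitochondrial turnover and blood vessel growth are transcribed. Iron regulatory proteins bind stem-loops called iron-responsive elements. One of these lies in the 5′ leader of the Epas1 mRNA, which encodes HIF2α, and its binding by Irp1 holds back translation. This step acts on protein synthesis and would not by itself appear in the Epas1 read count. The seminiferous tubules have no blood vessels inside them, and the germ cells near their centre live at low oxygen.

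The Epas1 element is shown because it is the site through which Irp1 acts on this pathway. It was read from the 5′ untranslated region of transcript ENSMUST00000024954.10 (GENCODE M21, mm10), at chr17:86753768-86753797 on the plus strand, and the capitals mark the first 5 letters of its loop.
Epas1 iron-responsive element: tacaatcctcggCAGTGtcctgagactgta
The search, on the transcript strand, took CAGTG followed by A, C or T, a stem of 5 paired bases (G with T allowed) with an unpaired C before it, and at most 1 unpaired base in the strand after the loop. Such letters were found in a 5′ untranslated region of 53 of 21087 genes (0.251%) and in 0 of the 10 HIF pathway genes. This says only that these letters are not in those annotated leaders.

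The promoters of 4 genes are shown with any copies of the factor's DNA core, the motif by which HIF target genes are known. The genes were listed as members of that pathway, so its presence is a description and not independent of their choice. The letters searched were ACGTG and GCGTG on both strands, so CACGTG counts on each strand and matches may overlap. In the 250 bases before the start (RefSeq, GRCm38.p6), 9 of the 10 genes had an entry, and Ndrg1 had none. All 9 held at least 1 core in at least 1 window, against 41.5% of 27025 genes with an entry and 57.1% of the 12115 tested genes with one. Bnip3 had the most cores, 5 in chr7:138909507-138909756 (minus strand), and Ankrd37 had 4 in chr8:45999851-46000100 (minus strand). Egln3 had 1 core in chr12:54203875-54204124 (minus strand), and Vegfa had 0 in chr17:46032378-46032627 (minus strand) and 2 at a second listed start inside the gene. Capitals mark the cores.
Bnip3: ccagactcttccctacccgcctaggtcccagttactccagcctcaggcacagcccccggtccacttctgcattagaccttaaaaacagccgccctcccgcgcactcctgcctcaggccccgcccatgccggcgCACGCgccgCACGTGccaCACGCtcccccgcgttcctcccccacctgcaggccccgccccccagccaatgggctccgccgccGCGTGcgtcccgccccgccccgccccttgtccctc
Ankrd37: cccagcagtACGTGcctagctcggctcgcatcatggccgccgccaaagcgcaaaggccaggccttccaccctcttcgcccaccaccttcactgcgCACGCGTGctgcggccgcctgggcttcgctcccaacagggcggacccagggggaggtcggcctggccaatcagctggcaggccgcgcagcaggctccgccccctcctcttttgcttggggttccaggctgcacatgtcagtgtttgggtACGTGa
Egln3: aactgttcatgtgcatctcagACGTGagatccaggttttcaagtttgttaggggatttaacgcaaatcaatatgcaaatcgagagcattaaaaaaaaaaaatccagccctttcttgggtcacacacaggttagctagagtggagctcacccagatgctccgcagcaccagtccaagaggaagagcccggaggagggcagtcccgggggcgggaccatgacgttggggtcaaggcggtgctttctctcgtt
Vegfa: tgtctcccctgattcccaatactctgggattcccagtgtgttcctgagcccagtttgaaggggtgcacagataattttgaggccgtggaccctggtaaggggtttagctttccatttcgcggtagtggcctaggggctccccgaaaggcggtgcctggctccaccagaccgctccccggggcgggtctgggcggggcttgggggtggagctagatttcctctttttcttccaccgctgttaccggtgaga
The remaining windows held 3 cores (Hif1a), 2 (Egln1, Slc2a1 and Adm) and 1 (Pdk1, with 0 at its second start). A match is a run of letters and not a measured binding site.

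The total count per sample was 15902473 to 22451417, and values are given as CPM, a gene's count relative to its sample's total. In 15 pairs of samples of 1 genotype, chi-square divided by its degrees of freedom lay between 1.97 and 6.75, above sampling noise. P-values weigh a difference between genotypes against the spread between these samples. The targeted genes followed the labels. Aco1 was at 11.7 ± 1.46 CPM (SD, n = 4) in WT and 8.60 ± 0.605 CPM (SD, n = 4) in Irp1-/- testes, and it fell by 0.45 on the log2 scale (adjusted p = 0.0158, edgeR). Ireb2 was at 138.5 ± 4.45 CPM (SD, n = 4) in WT and 62.7 ± 1.6 CPM (SD, n = 3) in Irp2-/- testes, and it fell by 1.17 on the log2 scale (adjusted p = 2.84e-13, edgeR). Both transcripts were lower and not absent, and RNA outside the disrupted part of a gene can still be counted. Summed markers of testis cells were present in every sample, among them Leydig cells (672 to 970 CPM in WT, 923 to 1107 in Irp1-/-, 703 to 943 in Irp2-/-), Sertoli cells (944 to 1042, 1064 to 1212, 957 to 1112), endothelial cells (22.8 to 26.7, 23.3 to 26.4, 24.2 to 26.6) and blood (30.3 to 36.3, 37.4 to 56.7, 25.1 to 38.6, with Hbb-bs at 0). Of the lists for spermatogonia, spermatocytes, round and elongating spermatids, myoid cells and macrophages, 0 genes passed the adjusted threshold against WT and 1 (spermatogonia) between the knockouts in edgeR. Spermatocyte markers were nominally lower than WT for 5 of 6 genes in Irp1-/- and 4 of 6 in Irp2-/- testes. In the same order, round spermatid markers were nominally higher for 5 of 5 and 1 of 5, and elongating spermatid markers lower for 3 of 5 and 5 of 5. Spermatogonial markers were nominally higher for 2 of 6 and 5 of 6, myoid for 3 of 5 and 4 of 5, and macrophage for 4 of 6 and 5 of 6. Leydig and Sertoli markers are given beside Vegfa and Ndrg1, and the epididymis list had too few counts to test (Lcn5 at 0). In whole tissue, fewer cells of a type and less RNA per cell cannot be told apart.

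In mm10 (GENCODE M21, strand in parentheses) the positions are Hif1a at chr12:73901375-73947530 (plus), Egln1 at chr8:124908587-124949324 (minus), Egln3 at chr12:54178981-54203860 (minus), Vegfa at chr17:46016993-46032369 (minus) and Slc2a1 at chr4:119108711-119137983 (plus). The others are Pdk1 at chr2:71873224-71903858 (plus), Bnip3 at chr7:138890836-138909519 (minus), Adm at chr7:110627661-110629820 (plus), Ankrd37 at chr8:45996902-46005707 (minus) and Ndrg1 at chr15:66929318-66969640 (minus). The genes differed widely in level. On the scale of CPM per kilobase of merged exons (GENCODE M21), which allows genes to be compared, Bnip3 was highest in WT testes at 6.98 ± 0.799 (SD, n = 4). Hif1a followed at 4.32 ± 0.369, Ndrg1 at 3.93 ± 0.282, Egln1 at 3.57 ± 0.262 and Pdk1 at 3.25 ± 0.256. Lower still were Ankrd37 at 2.07 ± 0.381, Slc2a1 at 2.01 ± 0.0891, Vegfa at 1.02 ± 0.178, Egln3 at 0.339 ± 0.0897 and Adm at 0.154 ± 0.0151. The WT ranges of neighbours in this order overlapped from Hif1a through Pdk1, and for Ankrd37 and Slc2a1. They did not overlap between Bnip3 and Hif1a, Pdk1 and Ankrd37, Slc2a1 and Vegfa, Vegfa and Egln3, or Egln3 and Adm. In Irp2-/- testes the order differed at Ndrg1, which stood at 5.15 ± 0.599 (SD, n = 3) above Hif1a at 4.37 ± 0.299 (SD, n = 3). In Irp1-/- testes Pdk1 (3.640 ± 0.348) stood just above Egln1 (3.637 ± 0.362), and Slc2a1 (2.226 ± 0.284) above Ankrd37 (2.155 ± 0.689, SD, n = 4). Both of these gaps were smaller than the SDs.

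**Figure D1:**
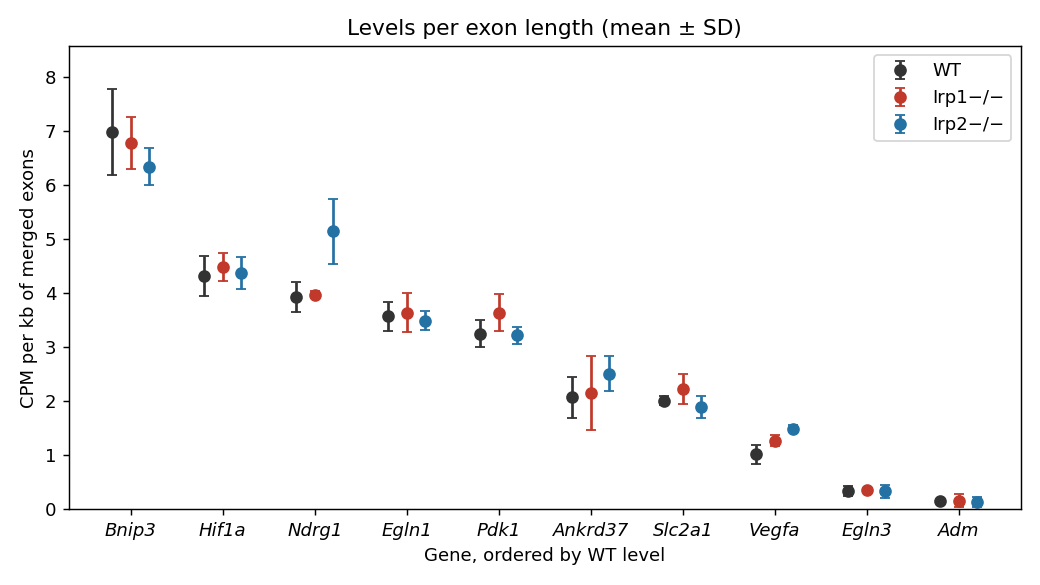
Level of each HIF pathway gene in CPM per kilobase of merged exons (vertical axis, linear, from 0), ordered by the WT mean, with points for the mean and bars for the SD over 4 WT, 4 Irp1-/- and 3 Irp2-/- mice. Bnip3 leads at 6.98 in WT, Adm is last at 0.154, and Ndrg1 in Irp2-/- testes stands at 5.15.

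No tested HIF pathway gene passed the test in Irp1-/- against WT testes. In edgeR's quasi-likelihood test, 0 of 9 had an adjusted p under 0.05, where 1.02% of the 16002 tested genes did, and DESeq2 likewise called 0. At an unadjusted p under 0.05 there was 1 gene, Vegfa, where 12.1% of all genes passed. Irp1-/- and WT samples overlapped for every one of the 9 genes, where 6.18% of all genes had groups that did not overlap. The median log2 fold change was 0.04, against -0.001 over all tested genes, and the genes lay between -0.06 and 0.30. Of the 9, 8 were nominally higher in Irp1-/- testes, where 49.7% of all genes were. The sign of Egln1, Egln3, Ankrd37 and Ndrg1 turned when single replicates were left out, so the count of 8 depends on them. The 95% intervals were within 1 on the log2 scale of 0 for all 9 genes and within 0.5 for 7, so a doubling or halving of any of them was outside its interval.

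In Irp2-/- against WT testes, 0 of 9 genes had an adjusted p under 0.05 in edgeR, where 1.21% of the 16154 tested genes did, and DESeq2 called 0. At an unadjusted p under 0.05 there were 2, Vegfa and Ndrg1, where 9.42% of all genes passed. The same 2 genes did not overlap between the groups, against 9.76% of all genes. The median was -0.04 on the log2 scale, against 0.003 over all genes, with 3 genes nominally higher and 6 lower. Between the knockouts, 1 of 9 genes changed: Ndrg1 was lower in Irp1-/- than in Irp2-/- testes, where 4.69% of the 16281 tested genes passed. There, 2 genes (Ndrg1 and Pdk1) had an unadjusted p under 0.05, where 16.3% of all genes did. Groups did not overlap for 2 genes (Ndrg1 and Vegfa), against 15.1% of all. The median log2 difference of Irp1-/- from Irp2-/- was 0.07, against -0.002 over all tested genes.

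**Figure D2:**
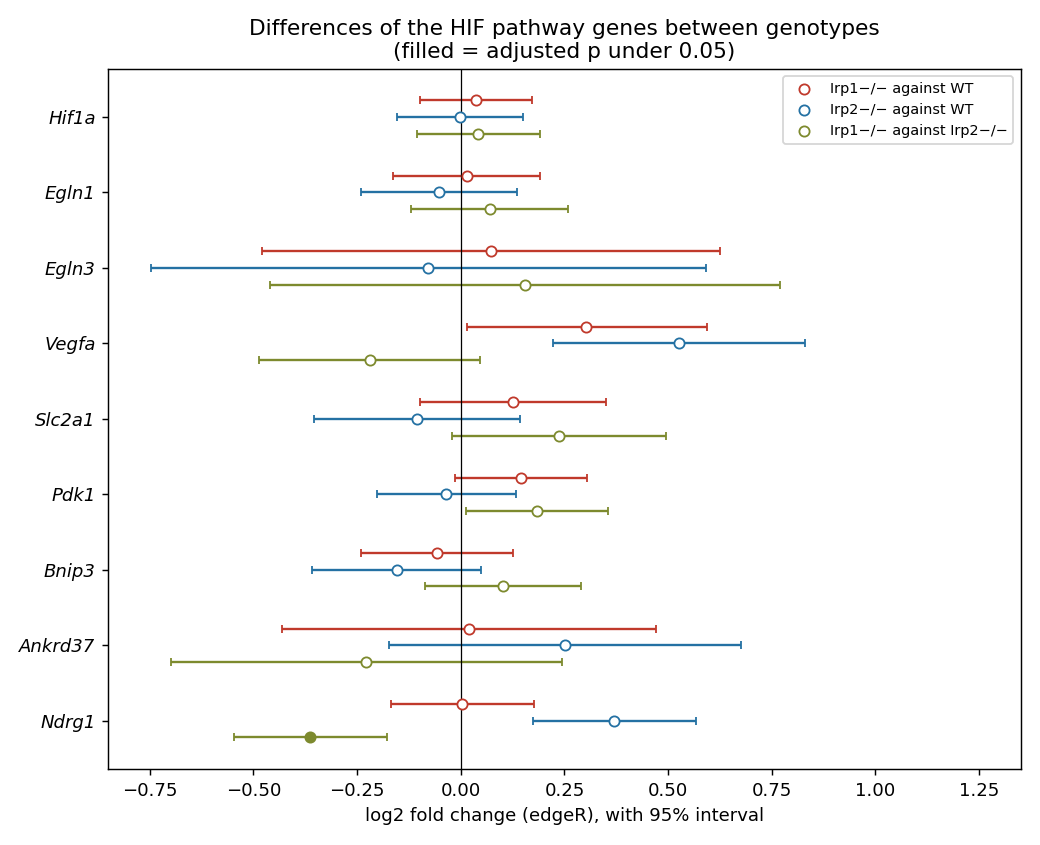
Log2 fold change of the 9 tested HIF pathway genes (horizontal axis) in 3 comparisons, with 95% intervals from edgeR that are not adjusted for the number of genes. Ndrg1 between the knockouts, at -0.36, is the only filled point, and Vegfa against WT lies at 0.30 in Irp1-/- and 0.53 in Irp2-/- testes with open points.

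Hif1a encodes the α subunit that most cells use in acute hypoxia. It was at 21.5, 22.3, 24.5 and 25.9 CPM in WT replicates 1 to 4, at 23.4, 23.2, 24.8 and 26.3 CPM in Irp1-/- replicates 1, 2, 6 and 7, and at 25.6, 22.5 and 23.2 CPM in Irp2-/- replicates 1 to 3. The ranges of the 3 genotypes overlapped. On the log2 scale the fold change was 0.04 (standard error 0.066, 95% interval -0.10 to 0.17) in Irp1-/- and -0.002 (standard error 0.074, 95% interval -0.16 to 0.15) in Irp2-/- against WT. These were the narrowest intervals of the 9 genes, with 364 to 573 counts per sample.

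Neither prolyl hydroxylase gene passed the threshold. Egln1, which encodes the main hydroxylase of HIF1α and is itself a HIF target, was at 11.5 to 13.5 CPM in WT, 12.0 to 14.8 in Irp1-/- and 11.9 to 13.02 in Irp2-/- testes. Its log2 fold change against WT was 0.01 (95% interval -0.16 to 0.19) in Irp1-/- and -0.05 (95% interval -0.24 to 0.14) in Irp2-/- testes. Egln3, the hydroxylase gene most strongly induced by hypoxia in many cell types, had only 12 to 22 counts per sample. It lay at 0.657 to 1.17 CPM in WT, 0.818 to 1.06 in Irp1-/- and 0.537 to 1.12 in Irp2-/- testes. Its interval was the widest of all, -0.48 to 0.63 in Irp1-/- and -0.75 to 0.59 in Irp2-/- against WT, so a moderate difference was not detectable at this depth.

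Vegfa, the main growth factor for blood vessels, had the highest log2 fold change of these genes against WT in both knockouts, and neither passed the adjusted threshold. WT replicates 1 to 4 were at 3.18, 3.18, 4.503 and 3.50 CPM. The Irp1-/- replicates 1, 2, 6 and 7 were at 4.07, 4.37, 4.97 and 4.47 CPM, and the Irp2-/- replicates 1 to 3 at 5.19, 5.04 and 5.51 CPM. WT replicate 3 stood above the other WT samples and inside the Irp1-/- range, while the Irp2-/- samples lay above every WT and every Irp1-/- sample. The Irp1-/- mean was 125% and the Irp2-/- mean 146% of the WT mean. Against WT, Vegfa differed by 0.30 on the log2 scale in Irp1-/- (standard error 0.141, adjusted p = 0.382, edgeR) and by 0.53 in Irp2-/- testes (standard error 0.147, adjusted p = 0.0882, edgeR). Between Irp1-/- and Irp2-/- testes it was -0.22 (standard error 0.128, adjusted p = 0.429, edgeR). Without WT replicate 3 the value in Irp2-/- was 0.64 (adjusted p = 0.0362, edgeR). The counts behind these values were 52 to 116 per sample. Summed Leydig markers were uneven within WT, at 693, 672, 970 and 916 CPM in replicates 1 to 4. They were at 1062, 1107, 923 and 933 CPM in Irp1-/- replicates 1, 2, 6 and 7, and at 857, 703 and 943 CPM in Irp2-/- replicates 1 to 3. Beside Vegfa, 6 of 6 tested Leydig markers and 7 of 8 Sertoli markers were nominally higher in Irp1-/- than in WT testes, with 0 and 1 past the adjusted threshold, against 4 of 6 and 4 of 8 in Irp2-/- testes with 0 past it. Their part in the Vegfa values was not tested.

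Adm encodes adrenomedullin, a peptide that widens vessels. It was close to the limit of detection, at 4, 3, 4 and 4 counts in WT replicates 1 to 4, 5, 3, 1 and 7 counts in Irp1-/- replicates 1, 2, 6 and 7, and 5, 6 and 1 counts in Irp2-/- replicates 1 to 3. The summed counts were 15, 16 and 12 in WT, Irp1-/- and Irp2-/- testes. The ranges of the 3 genotypes overlapped, and no fold change was fitted.

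Slc2a1 and Pdk1 act on glucose use. Slc2a1, the glucose transporter GLUT1, was at 6.57, 6.17, 6.58 and 6.88 CPM in WT, at 8.29, 6.10, 7.03 and 7.61 CPM in Irp1-/- and at 6.94, 5.75 and 5.78 CPM in Irp2-/- testes. In Irp1-/- testes 3 of 4 samples were above every WT sample and 1 was below all of them. Slc2a1 had a log2 fold change of 0.13 (95% interval -0.10 to 0.35) in Irp1-/- and -0.11 (95% interval -0.35 to 0.14) in Irp2-/- against WT. Pdk1, a kinase that keeps pyruvate out of the mitochondrial cycle, was at 15.1, 16.5, 17.7 and 18.04 CPM in WT, at 19.5, 16.3, 19.3 and 20.4 CPM in Irp1-/- and at 16.1, 16.3 and 17.7 CPM in Irp2-/- testes. Irp1-/- replicate 2 lay inside the WT range and the other Irp1-/- samples above it. For Pdk1 the difference from WT was 0.15 on the log2 scale in Irp1-/- (standard error 0.077, adjusted p = 0.463, edgeR) and -0.04 in Irp2-/- testes (standard error 0.081, adjusted p = 0.957, edgeR). Irp1-/- exceeded Irp2-/- testes by 0.18 (adjusted p = 0.26, edgeR), which did not pass the threshold.

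Bnip3 encodes a mitochondrial outer membrane protein that marks mitochondria for removal. It was at 10.8, 13.3, 13.6 and 14.2 CPM in WT, at 11.9, 12.6, 12.0 and 13.8 CPM in Irp1-/- and at 12.3, 11.04 and 12.0 CPM in Irp2-/- testes. WT replicate 1 was the lowest of all samples and WT replicate 4 the highest, so both knockouts lay inside the WT range. The log2 fold change was -0.06 (95% interval -0.24 to 0.13) in Irp1-/- and -0.16 (95% interval -0.36 to 0.05) in Irp2-/- against WT. Ankrd37, an ankyrin repeat protein gene known mainly as a HIF target, had 24 to 53 counts per sample and ranged from 1.53 to 2.25 CPM in WT, 1.21 to 2.77 in Irp1-/- and 1.998 to 2.59 in Irp2-/- testes. Its 4 Irp1-/- samples included both the lowest and the highest value of the 11 samples. Its fold change was 0.02 on the log2 scale (95% interval -0.43 to 0.47) in Irp1-/- and 0.25 (95% interval -0.17 to 0.68) in Irp2-/- against WT.

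Ndrg1, a hypoxia-responsive gene linked to growth arrest and differentiation, was the 1 gene of the list that differed between the knockouts. WT replicates 1 to 4 were at 10.3, 11.7, 12.2 and 11.2 CPM. The Irp1-/- replicates 1, 2, 6 and 7 were at 11.5, 11.6, 11.5 and 11.2 CPM, and the Irp2-/- replicates 1 to 3 at 15.3, 12.97 and 16.4 CPM. The 3 Irp2-/- samples lay above all others, and the Irp1-/- samples lay inside the WT range. The Irp2-/- mean was 131% of the WT mean and the Irp1-/- mean 101%. The log2 difference of Irp1-/- from Irp2-/- testes was -0.36 (standard error 0.089, adjusted p = 0.0181, edgeR). Against WT it was 0.00 (standard error 0.084, 95% interval -0.17 to 0.18) in Irp1-/- and 0.37 (standard error 0.095, adjusted p = 0.0576, edgeR) in Irp2-/- testes. The difference between the knockouts missed the threshold without Irp1-/- replicate 1 (adjusted p = 0.0588, edgeR), Irp2-/- replicate 1 (adjusted p = 0.0618) or Irp2-/- replicate 3 (adjusted p = 0.111). The difference of Irp2-/- from WT passed it without Irp2-/- replicate 2 (log2 0.45, adjusted p = 0.0396, edgeR). It also passed with no count filter (adjusted p = 0.0358, edgeR) and when all 11 samples shared 1 estimate of the spread (adjusted p = 0.0318, edgeR). It missed the threshold without any other single replicate (adjusted p up to 0.294, edgeR). Under the remaining settings it missed it as well (adjusted p up to 0.17, edgeR and DESeq2). In the comparison of the knockouts, 6 of 6 Leydig markers and 5 of 8 Sertoli markers were nominally higher in Irp1-/- testes, with 2 of each past the adjusted threshold. Their part in the values of Ndrg1, or of the pathway genes called in that comparison, was not tested.

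**Figure D3:**
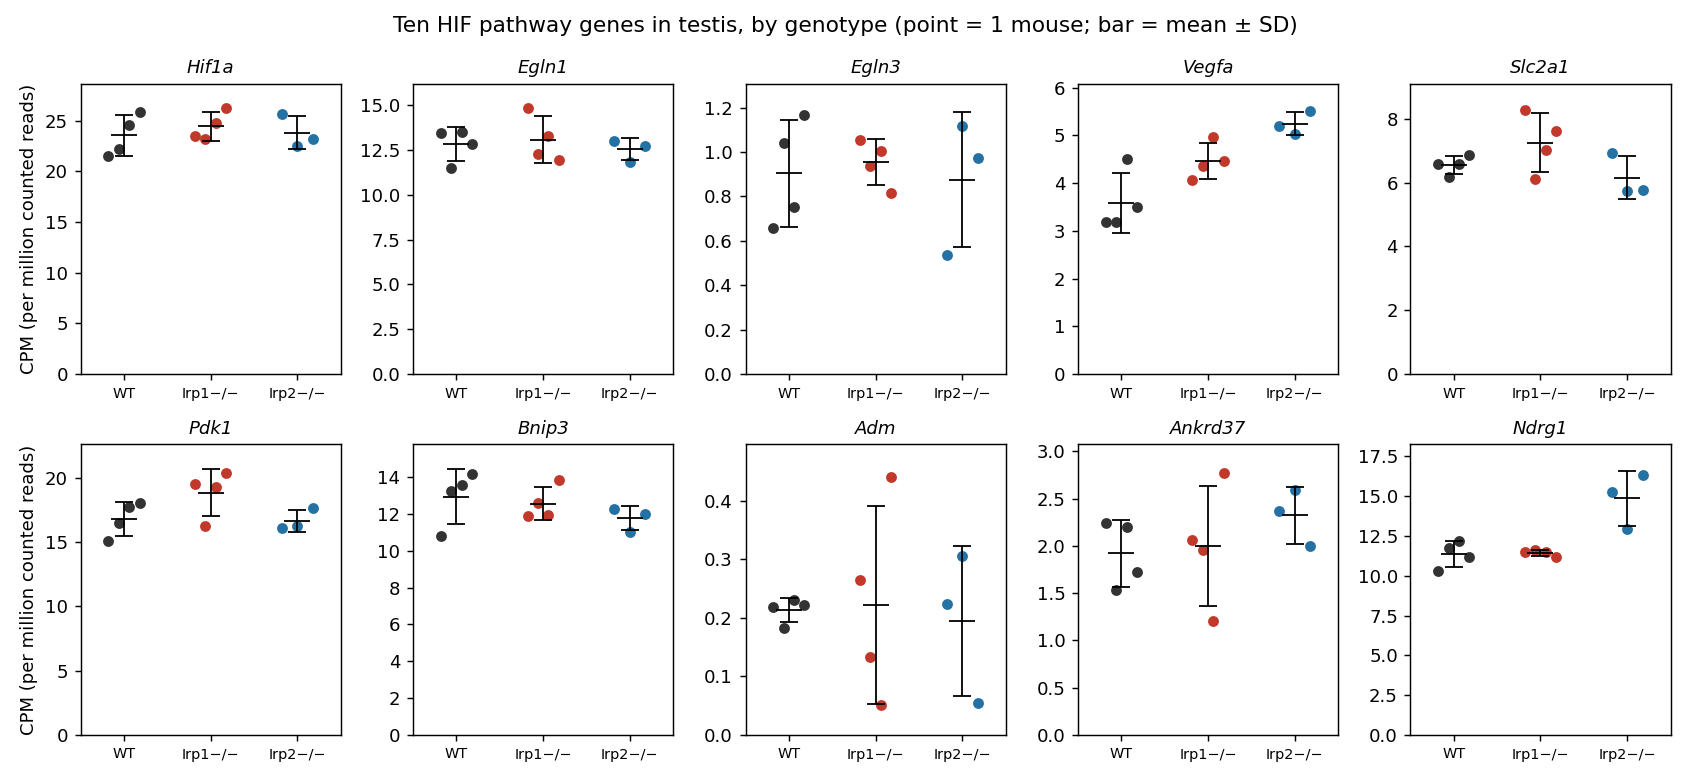
CPM of the 10 HIF pathway genes (vertical axes, linear, from 0, scaled per gene), with 1 point per mouse and bars for the mean ± SD in 4 WT, 4 Irp1-/- and 3 Irp2-/- mice. Only in the Vegfa and Ndrg1 panels do the Irp2-/- points lie above every WT point, and no panel separates Irp1-/- from WT.

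Across the 11 samples the genes did not vary as a block. Of the 36 pairs of the 9 tested genes, 17 had a positive Pearson correlation of log2 CPM, and the median was -0.08. The pairs with the highest values were Vegfa with Ndrg1 (r = 0.70), Hif1a with Bnip3 (r = 0.64) and Slc2a1 with Pdk1 (r = 0.64), and the lowest was Slc2a1 with Ndrg1 (r = -0.52). The points share genotype and library, and these values are descriptions over 11 samples. For the 3 genes with the highest mean CPM over all 11 samples, the most alike gene outside the lists, of 16267, was H2bfm for Hif1a (r = 0.97), Vwa5a for Pdk1 (r = 0.95) and Ftx for Egln1 (r = 0.89). Each is the highest of 16267 values over only 11 samples, and how high chance alone would reach was not tested.

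The partners of these genes in oxygen sensing were tested in the same fits. Epas1, which encodes HIF2α (chr17:86753700-86833410), rose in Irp2-/- testes. It was at 35.7, 34.6, 38.3 and 37.5 CPM in WT replicates 1 to 4, at 39.1, 32.7, 36.5 and 32.1 CPM in Irp1-/- replicates 1, 2, 6 and 7, and at 47.7, 47.5 and 46.9 CPM in Irp2-/- replicates 1 to 3. The Irp2-/- samples lay above all 8 others, while WT and Irp1-/- samples overlapped. Epas1 differed from WT by 0.36 on the log2 scale in Irp2-/- (standard error 0.056, adjusted p = 0.000735, edgeR) and by -0.07 in Irp1-/- testes (standard error 0.058, adjusted p = 0.684, edgeR). The log2 difference of Irp1-/- from Irp2-/- was -0.42 (standard error 0.064, adjusted p = 0.000226, edgeR). The summed endothelial markers, whose cells are known to express Epas1, were at 22.8 to 26.7 CPM in WT and 24.2 to 26.6 CPM in Irp2-/- testes, with 1 of 6 markers nominally higher in Irp2-/-. Their summed means were 24.55 CPM in WT and 25.42 CPM in Irp2-/- testes. The part of endothelial or other cells in the Epas1 values was not tested. No other partner had an adjusted p under 0.05 in any comparison. Between the knockouts, Hif3a and Arnt were below 0.05 before adjustment and missed it after (adjusted p = 0.23 and adjusted p = 0.264, edgeR). Hif3a, an inhibitory α subunit, was at 3.80 ± 0.669 CPM (SD, n = 4) in WT, 3.08 ± 0.330 (SD, n = 4) in Irp1-/- and 3.97 ± 0.338 (SD, n = 3) in Irp2-/- testes. Arnt, the β subunit, was at 22.8, 22 and 24.9 CPM on average in WT, Irp1-/- and Irp2-/- testes. In the same order, Vhl, the adaptor that captures hydroxylated HIF, was at 83.2, 81.6 and 85.8 CPM, and Hif1an, the asparagine hydroxylase, at 63.4, 61.7 and 64.7 CPM. Egln2, the third prolyl hydroxylase gene, was at 640.1, 630.2 and 614 CPM.

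**Figure D4:**
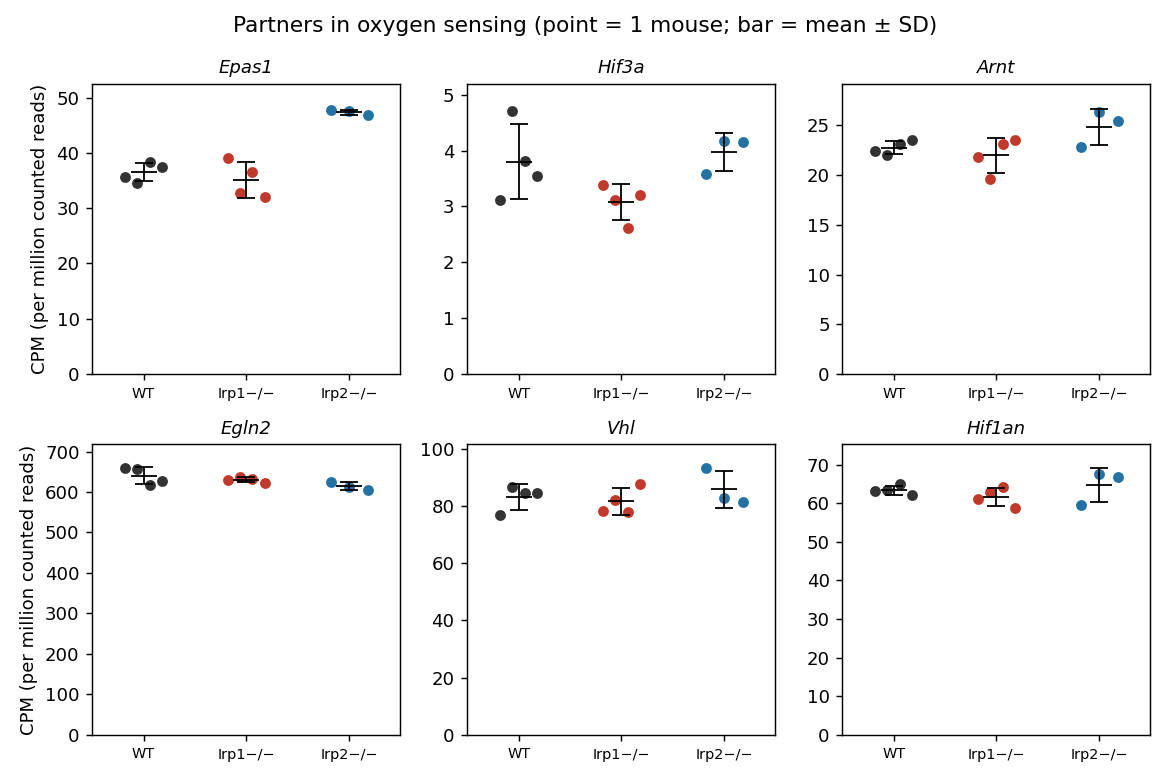
CPM of 6 partners of the HIF pathway genes in oxygen sensing (vertical axes, linear, from 0, scaled per gene), with 1 point per mouse and bars for the mean ± SD in 4 WT, 4 Irp1-/- and 3 Irp2-/- mice. The Epas1 points of Irp2-/- mice (46.9 to 47.7 CPM) lie above those of all other mice (32.1 to 39.1 CPM).

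A further 77 genes of the pathway were listed in 4 groups. Against WT, 0 of 73 tested genes passed the adjusted threshold in Irp1-/- testes in edgeR or DESeq2, 11 had an unadjusted p under 0.05 in edgeR, and the median log2 fold change was 0.02. In Irp2-/- testes 1 of 73 changed, Epas1, with 9 at an unadjusted p under 0.05 and a median of 0.02. Between the knockouts, 5 of 74 changed, all lower in Irp1-/- than in Irp2-/- testes, with 18 at an unadjusted p under 0.05 and a median of -0.02. Of the 763 genes called in that comparison over all tested genes, 476 were higher and 287 lower in Irp1-/- testes. DESeq2 also called 5 of the listed pathway genes between the knockouts, with Tpi1 in place of Ak4. Over all tested genes the share past the adjusted threshold was 1.02%, 1.21% and 4.69% in these comparisons, and the share at an unadjusted p under 0.05 was 12.1%, 9.42% and 16.3%. Against these shares, neither the adjusted counts of 0, 1 and 5 nor the unadjusted counts of 11, 9 and 18 are read as a result about the pathway.

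The subunits and oxygen sensing genes held 16 tested genes, of which Epas1 was called and Egln2 and Tceb2 (elongin B, at 188 CPM in WT) had the highest CPM. CPM is not corrected for gene length, so it says which genes drew the most reads in a group and does not rank their levels. The glycolysis targets held 18 tested genes, with 2 called between the knockouts, where 4.69% of all tested genes were. Eno1 and Pkm are glycolytic enzymes, enolase and pyruvate kinase. Eno1 was at 100 to 113 CPM in WT, 87.7 to 111 in Irp1-/- and 111 to 138 in Irp2-/- testes, a log2 difference of Irp1-/- from Irp2-/- of -0.34 (standard error 0.078, adjusted p = 0.0236, edgeR). For Pkm the ranges were 331 to 361, 317 to 328 and 356 to 374 CPM, and the difference was -0.18 (standard error 0.046, adjusted p = 0.0244, edgeR). Against WT, the log2 fold change of Eno1 was -0.12 in Irp1-/- and 0.22 in Irp2-/- testes. That of Pkm was -0.11 and 0.08, and none of these passed the adjusted threshold in edgeR with its standard filter. Both genes have pseudogene copies that could take part of their reads, and Pkm lies 4.74 Mb from Ireb2 on chromosome 9. The part of either in these values was not tested. Hk1, a hexokinase (2678 CPM in WT), and Slc2a3, the glucose transporter GLUT3 (1299 CPM in WT), drew the most reads in this group.

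Other targets held 24 tested genes, again with 2 called between the knockouts, where 4.69% of all tested genes were. Higd1a, a mitochondrial protein gene, was at 50.6 to 55.7 CPM in WT, 43.7 to 51.6 in Irp1-/- and 54.7 to 59.7 in Irp2-/- testes, a difference of -0.24 (standard error 0.062, adjusted p = 0.0254, edgeR). Ak4, a mitochondrial adenylate kinase gene, was at 6.48 to 8.02, 7.02 to 7.18 and 8.77 to 9.72 CPM, a difference of -0.36 (standard error 0.1, adjusted p = 0.0421, edgeR). For both, the Irp1-/- and Irp2-/- samples did not overlap, as for 15.1% of all tested genes. Kdm3a, a histone demethylase (219 CPM in WT), and Mxi1, a Myc antagonist (115 CPM in WT), drew the most reads in this group. The vascular and iron targets held 15 tested genes against WT and 16 between the knockouts, with 0 called in any comparison by edgeR with its standard filter or by DESeq2, and 2, 2 and 3 at an unadjusted p under 0.05 in edgeR. Apln, a vascular peptide gene named after its values were seen, was just outside the threshold between the knockouts, with a log2 difference of 0.51 (standard error 0.148, adjusted p = 0.0532, edgeR). It was called with no count filter, with at least 10 counts in every sample, and without Irp1-/- replicate 7 or Irp2-/- replicate 3. It was not called with RLE normalization, in DESeq2, in the fit of all 11 samples, or without any other single replicate. Here Tfrc, the transferrin receptor (17.2 CPM in WT), and Slc11a2, an iron transporter (21.7 CPM in WT), drew the most reads. Epo, the hormone of red cell formation and the best known HIF2 target, had at most 1 count in any sample and could not be tested. Ak4 missed the threshold whichever sample was left out, with an adjusted p of 0.0607 to 0.151 in edgeR. It also missed it with no count filter (0.055) and in DESeq2 (0.148). Eno1 missed it without Irp1-/- replicate 7, Irp2-/- replicate 1 or Irp2-/- replicate 3 (adjusted p up to 0.0983, edgeR). Pkm missed it without Irp1-/- replicate 1 or 6 or Irp2-/- replicate 2 (up to 0.142, edgeR), and Higd1a without Irp1-/- replicate 2 or 6 or Irp2-/- replicate 1 or 2 (up to 0.0949, edgeR). Epas1 kept its calls without any single sample.

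**Figure D5:**
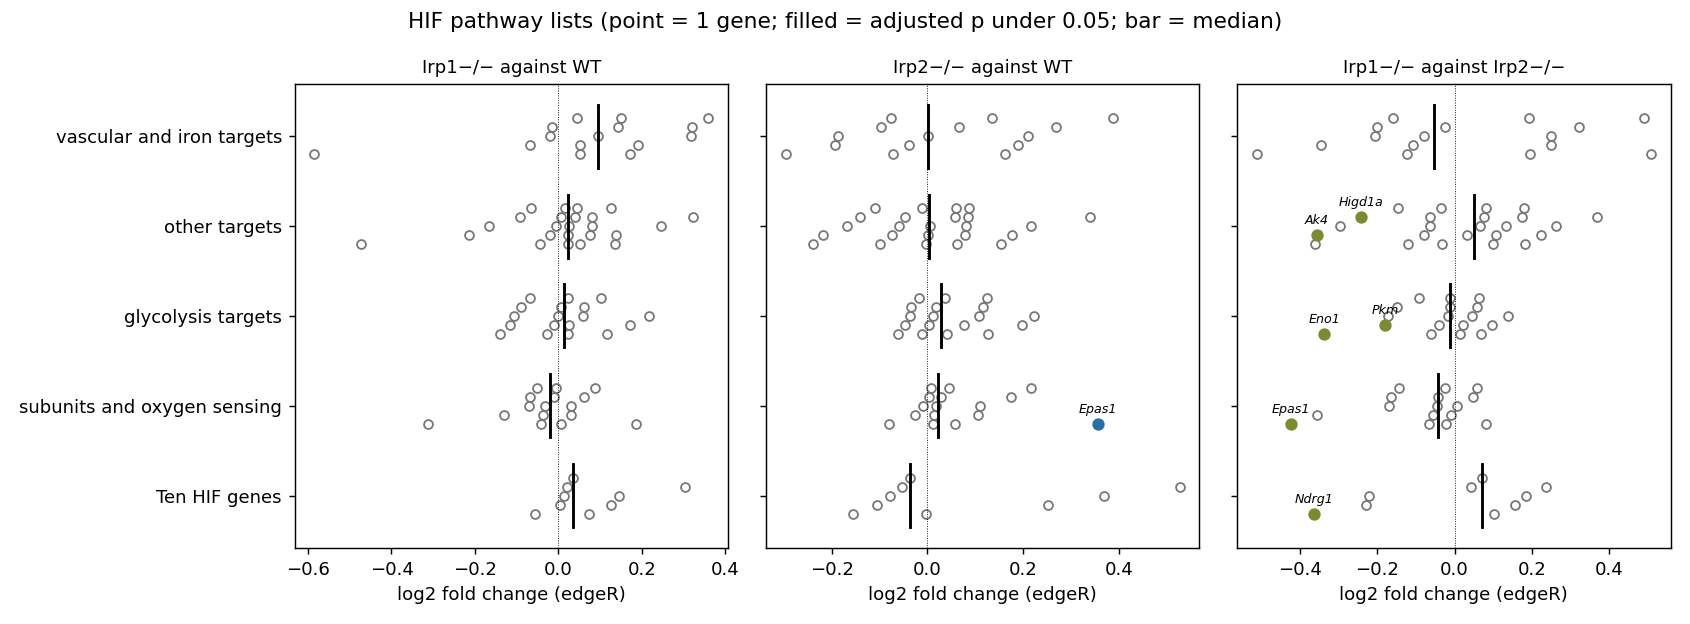
Log2 fold change (horizontal axes) of every tested gene of the HIF lists in 3 comparisons, with 1 point per gene, filled where the adjusted p was under 0.05, and a bar at the list's median. The Irp1-/- against WT panel has no filled point, and the filled points between the knockouts (Epas1, Eno1, Pkm, Higd1a, Ak4 and Ndrg1) all lie below 0.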

How the data were processed

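Whole testis RNA of 11 mice was sequenced as paired-end reads after poly(A) selection. The authors deposited whole-number read counts per gene, made with bcl2fastq (2.20.0.422 in the submitters' processing notes) followed by nf-core's RNA-seq workflow on the mm10 build. The counting tool and its use of strand are not given in the sources used here, so the counts could be rounded estimates, and reads of overlapping genes (Ufsp2 with Ankrd37, and noncoding genes with Hif1a, Egln1, Slc2a1 and Adm) could be shared. Total counts were 15902473 to 22451417 per sample. Column names carry an L except that of Irp1-/- replicate 6, which has R, and the letters are not explained.

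edgeR 4.0.16 under R 4.3.3 was run on the counts (TMM, filterByExpr, robust quasi-likelihood test), fitting only the genotypes compared, and p-values were adjusted by Benjamini-Hochberg over all tested genes at a threshold of 0.05. Each standard error is the size of the log2 fold change divided by the root of F. CPM used raw totals, and fold changes used TMM. The genes and lists, including 11 cell marker lists, were chosen with earlier results of these data known. Named genes were the 10 HIF pathway genes, both targeted genes, 6 oxygen-sensing partners, called pathway genes and the 2 highest of each list, and the most correlated gene for 3 of them. Tpi1, Epo, Apln, Aldoc, Hk2 and Pgam1 were named after their values were seen. Promoter letters were RefSeq's (GRCm38.p6), and leaders and gene models GENCODE M21. Alternatives were RLE normalization, no count filter, at least 10 counts in every sample, DESeq2 1.42.0 (the authors' tool), a fit of all 11 samples, a replicate block and leaving out each replicate. The main edgeR test of each comparison was run first on simulated counts, and the alternatives were not. The changes planted there were larger than those found for the HIF pathway genes.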

Additional observations from a re-analysis of the deposited data

Results flagged for a closer look

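In 2 of 58 groups of 4 samples examined, 1 sample stood apart from the rest, where chance gives about 2.9 (1 in 20). Ireb2 in WT replicate 3 was at 131.9 CPM, below the other WT samples at 140.1 to 141.5 CPM. Slc11a2, the iron transporter, was at 25.9 CPM in Irp1-/- replicate 1, above the other Irp1-/- samples at 21.5 to 21.9 CPM. Groups of 3 were not examined.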

How the results depend on the processing

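In Irp1-/- against WT testes, 0 of the 9 HIF pathway genes were called under every alternative. Replicate numbers showed at most a weak pairing of the samples: same-numbered deviations correlated at -0.01 to 0.078, no pair over 0.1. Among the WT and Irp2-/- samples numbered 1 to 3, 4 of 6 correlated best with their own number. These values do not settle whether the samples were paired. The Irp1-/- replicates (1, 2, 6 and 7) share only numbers 1 and 2 with the WT and with the Irp2-/- samples. A block on the number therefore took these differences from the samples numbered 1 and 2 alone, and its calls rest on them. With the number as a block, calls in Irp1-/- against WT were 439 of all genes and 4 of the other pathway genes (Aldoc, Eno1, Hk2 and Pgam1), and between the knockouts 0 of the 9 genes, as Ndrg1 was then at -0.28 (adjusted p = 0.216, edgeR). Ak4 was also lost there (adjusted p = 0.247, edgeR), and Apln was gained. The block turned Bnip3 in Irp1-/- against WT to 0.00, Hif1a and Egln3 in Irp2-/- against WT to 0.042 and 0.061, and Hif1a between the knockouts to -0.043 (log2). In Irp2-/- against WT, no count filter gave 1 of the 9 genes (Ndrg1) and 2 other pathway genes (Eno1 and Epas1), and the fit of all 11 samples gave 1 (Ndrg1).

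With 1 replicate left out, calls over all genes were 55 to 216 in Irp1-/- against WT (55, 84, 102 and 106 without Irp1-/- replicate 1, WT replicate 2, Irp1-/- replicate 6 and WT replicate 4, of 164), 118 to 223 in Irp2-/- against WT (118 without Irp2-/- replicate 2, of 196) and 414 to 763 between the knockouts (471 and 414 without Irp1-/- replicate 1 and Irp2-/- replicate 2). Calls of the 9 genes were 0 to 1 in Irp2-/- against WT and 0 to 1 between the knockouts. Other pathway genes were 1 to 2 and 2 to 5. Signs turned for Egln1 (-0.048 to 0.053), Egln3 (-0.046 to 0.219), Ankrd37 (-0.153 to 0.203) and Ndrg1 (-0.031 to 0.034) in Irp1-/- against WT, for Hif1a (-0.063 to 0.042) and Egln3 (-0.308 to 0.195) in Irp2-/- against WT, and for Egln3 (-0.118 to 0.386) between the knockouts. The cause was not tested. Vegfa in Irp2-/- against WT had an adjusted p of 0.0549 to 0.302 under the other settings and 0.0362 to 0.269 with 1 replicate left out (edgeR and DESeq2). Depth limits Adm, Egln3 and Ankrd37 most.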
